A study of Mus with 14 samples.

Results

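The genes described here are 10 regulators of the G1 phase of the cell cycle: the Cip/Kip inhibitors Cdkn1a (p21), Cdkn1b (p27) and Cdkn1c (p57), the Ink4 inhibitors Cdkn2c (p18) and Cdkn2d (p19), the D-type cyclins Ccnd1, Ccnd2 and Ccnd3, and their kinases Cdk4 and Cdk6. They were taken by name, as 10 of the 32285 genes listed in the deposited matrices, and were followed by group, mouse and lineage, with cells lacking or holding Mki67 transcripts kept apart. The matrices come from single-cell RNA sequencing (10x Chromium 3' chemistry, version 3.1) of 14 libraries, with the marrow of 1 mouse in each. The cells sequenced lacked lineage markers on their surface and carried Kit and the donor allele CD45.2, a sort that collects blood stem and progenitor cells.

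The labels give 4 groups. There are 3 mice labelled MxCre and 4 labelled Dnmt3a. The groups Dnmt3a;Tnfr1KO (3 mice) and Dnmt3a;Tnfr2KO (4 mice) are written Tnfr1KO-labelled and Tnfr2KO here. In every group, CD45.2+ marrow was first transplanted with CD45.1+ competitor marrow into aged, lethally irradiated CD45.1+ hosts, which received a single intraperitoneal injection of poly(I:C) one month later. Poly(I:C) induces an interferon response and with it the Mx1 promoter, which drives Cre in blood cells and in other interferon-responsive cells. Marrow of these primary hosts was then transplanted into further aged, lethally irradiated hosts, whose marrow was collected 20 weeks later. The labels name Dnmt3a without giving the allele. They also do not name the primary host that the marrow of each mouse came from. Animals within a group could therefore share a source, and the p values then measure only the spread between these samples.

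Entry into S phase is gated by D-type cyclins, which bind Cdk4 or Cdk6 and start the phosphorylation of the retinoblastoma protein. Ink4 proteins bind Cdk4 and Cdk6 directly, whereas Cip/Kip proteins bind cyclin-kinase complexes and restrain Cdk2 in particular. In the blood system Cdkn1c and Cdkn1b are known for holding stem cells out of cycle, Cdkn1a for its induction by p53, and Cdk6 for controlling how readily a dormant stem cell re-enters the cycle. Levels are given as UMIs (unique molecular identifiers, each counting 1 captured transcript) scaled to a total of 1000000 UMIs over the summed cells (counts per 1000000, CPM). These counts do not scale with transcript length, but capture can differ between genes.

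On GRCm38 the genes lie at chr17:29090979-29100722 (Cdkn1a), chr6:134920401-134925525 (Cdkn1b), chr7:143458339-143461059 (Cdkn1c), chr4:109660876-109666756 (Cdkn2c) and chr9:21288459-21291421 (Cdkn2d). The cyclin genes lie at chr7:144929931-144939831 (Ccnd1), chr6:127125162-127152188 (Ccnd2) and chr17:47505051-47599689 (Ccnd3), and the kinase genes at chr10:127063535-127067288 (Cdk4) and chr5:3341004-3531008 (Cdk6). Each range spans the whole annotated gene.

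After filters, 66895 of 86693 barcodes were kept, 1924 to 7265 per library, with 62416022 to 162869740 UMIs per library before filtering. Dnmt3a replicates 1 and 4 stood apart. Replicate 1 kept 26.5% of its barcodes, against 63.2% to 91.6% in the other libraries, and had the highest median depth (39086 UMIs per kept cell), whereas replicate 4 had the lowest (10575) and held 1952 of the 2126 B progenitor cells. Pairs of libraries shared 1 to 15 cell barcodes. Tnfrsf1b, the gene of TNF receptor 2, was lower in Tnfr2KO than in Dnmt3a mice (log2 fold change -1.44, edgeR adjusted p = 0.000606). Tnfrsf1a, the gene of TNF receptor 1, was not lower in the Tnfr1KO-labelled libraries (log2 fold change -0.19, edgeR adjusted p = 0.605), and since the deleted part of the gene is not given, a 3' tag may not check that label. The same limit holds for Dnmt3a, whose transcript gave a log2 fold change of 0.31 (edgeR adjusted p = 0.0784) between Dnmt3a and MxCre mice. That transcript was lower in Tnfr1KO-labelled than in Dnmt3a libraries (-0.48, edgeR adjusted p = 0.0485), with -0.37 (0.0601) in Tnfr2KO libraries, although all 3 groups carry the Dnmt3a label.

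Cells were assigned to lineages by the UMIs of 6 marker genes each, with thresholds that were set after the matrices had been seen. Of the kept cells, 6083 passed the stem gate (at least 2 of Hlf, Mecom, Procr, Fgd5, Robo4 and Tcf15) and no other gate. The granulocyte progenitor gate held 11617 and the monocyte progenitor gate 8636. Another 3596 passed an early granule-gene gate, which asks for Elane, Mpo, Prtn3 and Ctsg without a UMI of Cebpe or Fcnb. Cells that reached several committed gates, or several of the stem, lymphoid-primed and early granule-gene gates, were set apart as mixed (1739 cells). A further 3298 passed the erythroid, 2772 the megakaryocyte, 1621 the neutrophil, 1047 the basophil and mast cell, and 851 the lymphoid-primed gate, while 22273 (33.3%) passed none. Deep cells pass a gate more readily than shallow ones, and the median depth was 15831 UMIs in the stem gate and 30709 in the granulocyte gate. Kit itself was at 192 CPM in the stem gate, at 31.4 CPM in the neutrophil gate and at 27 CPM in the mature B gate, so the last 2 hold little of the transcript that the sort selects on.

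The levels of these regulators differed between some of the lineages. Of the lineages ranked, the stem gate had the highest mean of Cdkn1c, lymphoid-primed cells of Cdkn1a, Ccnd1 and Cdk4, and megakaryocyte progenitors of Ccnd2. Neutrophil-gate cells had the highest means of Cdkn2d and Ccnd3, with little of any other D-type cyclin or of either kinase. For each gene the lineages were ranked by their mean over libraries, and each was compared with the next lower one within libraries. Of these 90 comparisons, 34 passed at an adjusted p under 0.05 (exact sign-flip permutation test, two-sided, Benjamini-Hochberg over the 90). In Mki67-negative cells alone 9 passed, and 23 passed under a stricter lineage rule that asks for 1 more marker.

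Among the Cip/Kip inhibitors, Cdkn1c was highest in the stem gate, at 7.65 ± 3.11 CPM (SD, n = 14). It was higher there than in megakaryocyte progenitors (4.37 ± 1.81 CPM) in 12 of 13 libraries (exact permutation adjusted p = 0.00488), and megakaryocyte progenitors in turn exceeded lymphoid-primed cells (1.80 ± 1.84 CPM, exact permutation adjusted p = 0.0421). Every other lineage ranked averaged under the lymphoid-primed level. That level rests on few UMIs (1 in MxCre, 11 in Dnmt3a, 22 in Tnfr1KO-labelled and 8 in Tnfr2KO libraries), so its rank is uncertain. After thinning each cell to 5000 UMIs, 4.57% of stem-gate cells and 0.354% of granulocyte-gate cells (41 of 11590) held a Cdkn1c UMI.

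Cdkn1a was highest in lymphoid-primed cells, at 31.6 ± 12.5 CPM (SD, n = 13), above the early granule-gene cells (14.7 ± 5.01 CPM) in 13 of 13 libraries (exact permutation adjusted p = 0.00314). Early granule-gene, stem-gate (13.9 ± 8.31 CPM), basophil and mast cell, and monocyte cells followed without a difference between neighbours beyond their spread. Erythroid progenitors were lowest, at 1.33 ± 0.628 CPM. B progenitors, present with enough cells in 3 Dnmt3a libraries only and therefore not ranked, held 42.2, 80.5 and 59.1 CPM.

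Cdkn1b was more evenly spread. It stood at 127 ± 68.1 CPM in mature B-gate cells (SD, n = 7), 63.7 ± 20.8 in basophil and mast cell progenitors and 53.9 ± 9.35 in neutrophil-gate cells (n = 11), which exceeded the stem gate (50.4 ± 9.03) in 10 of 11 libraries (exact permutation adjusted p = 0.0293). Stem-gate, megakaryocyte (47.5 ± 13.1) and lymphoid-primed cells (42.2 ± 12) did not differ as neighbours. Granulocyte progenitors were lowest at 16.0 ± 4.53 CPM, below monocyte progenitors (20.8 ± 6.21) in 14 of 14 libraries (exact permutation adjusted p = 0.00314). Cdkn1b made up 70.3% ± 6.18 of the Cip/Kip UMIs of the stem gate, with 18.7% ± 7.96 from Cdkn1a and 11% ± 5.44 from Cdkn1c, whereas in lymphoid-primed cells Cdkn1a reached 40.8% ± 8.35.

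The Ink4 pair separated in neutrophil-gate cells. Cdkn2d was at 242 ± 31.9 CPM there (SD, n = 11), from 202 to 293 over libraries, above the mature B-gate cells ranked next (89.4 ± 39.8) in 7 of 7 libraries (exact permutation adjusted p = 0.0439), while the stem gate held 49.8 ± 5.83 and granulocyte progenitors 24.8 ± 2.89. Cdkn2c differed less: it was at 60.2 ± 19.9 CPM in neutrophil-gate cells, 55.4 ± 17.9 in the stem gate and 27.1 ± 6.25 in granulocyte progenitors. Stem-gate UMIs of the pair were 51.6% Cdkn2c and 48.4% Cdkn2d, against 80.4% Cdkn2d in neutrophil-gate cells and 66.0% Cdkn2d in megakaryocyte progenitors.

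**Figure D1:**
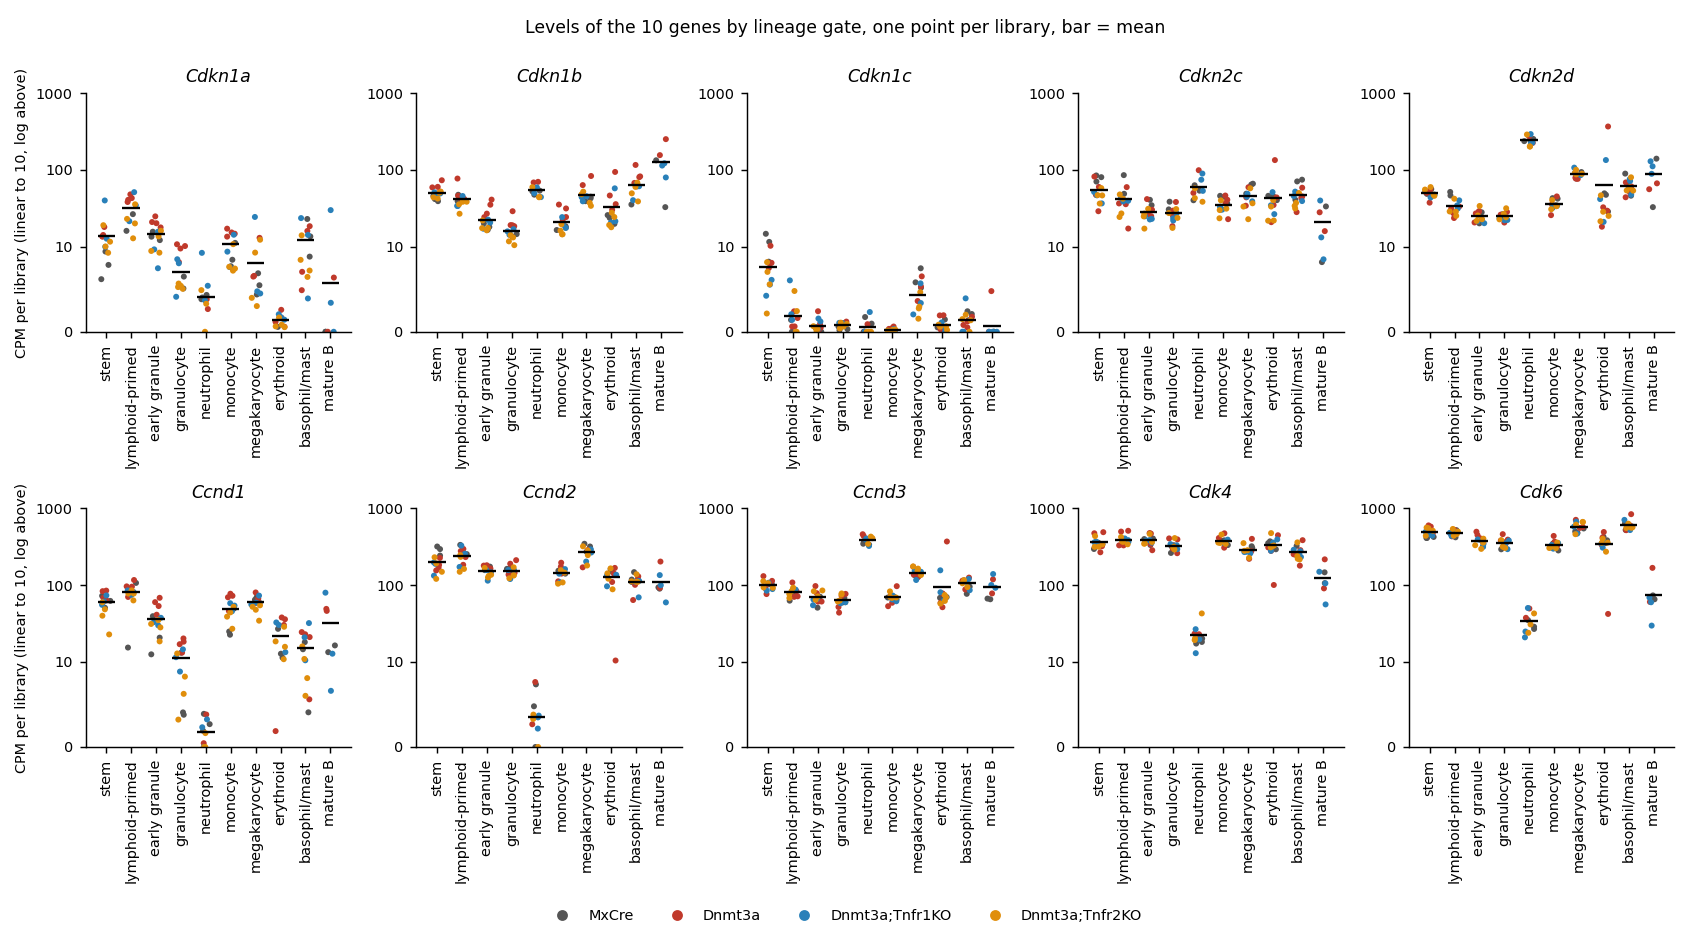
Level of each of the 10 genes in CPM (vertical axis, linear to 10 and logarithmic above) in each lineage gate (horizontal axis), with 1 point per library coloured by group and a bar at the mean. Among the lineages ranked, the mean is highest in the stem gate for Cdkn1c (7.65 CPM) and in the neutrophil gate for Cdkn2d and Ccnd3 (242 and 388 CPM), where Ccnd2, Cdk4 and Cdk6 are at their lowest.

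Ccnd2 or Ccnd3 was the main D-type cyclin by share of UMIs in each lineage named here. Ccnd2 was the main one in the stem gate, with 54.7% ± 7.42 of D-type cyclin UMIs (SD, n = 14) against 28.6% ± 6.17 for Ccnd3 and 16.8% ± 4.33 for Ccnd1. Granulocyte progenitors kept Ccnd2 (67.1%) and Ccnd3 (28.2%) with 4.76% Ccnd1. Neutrophil-gate cells were 98.6% ± 0.897 Ccnd3 (n = 11) and B progenitors 84.9% ± 8.90 Ccnd3 (n = 3).

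By level, Ccnd1 was highest in lymphoid-primed cells (80.5 ± 24.6 CPM, n = 13), the stem gate (60.4 ± 16.7) and megakaryocyte progenitors (59.6 ± 11.7), whose neighbours in this order did not differ beyond their spread. Lower means followed down to 11.1 ± 5.50 CPM in granulocyte progenitors, which still exceeded neutrophil-gate cells in 11 of 11 libraries (exact permutation adjusted p = 0.00732). Ccnd2 was at 267 ± 54.0 CPM in megakaryocyte progenitors and 241 ± 60.5 in lymphoid-primed cells, which exceeded the stem gate (200 ± 57.9) in 12 of 13 libraries (exact permutation adjusted p = 0.0110). Ccnd3 was at 388 ± 45.4 CPM in neutrophil-gate cells (324 to 461 over 11 libraries), above megakaryocyte progenitors (146 ± 18.2) in 10 of 10 libraries (exact permutation adjusted p = 0.0117), and reached 530, 670 and 852 CPM in the B progenitors of Dnmt3a replicates 1, 3 and 4.

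Of the kinases, Cdk4 lay between 269 ± 57.0 CPM (basophil and mast cell) and 388 ± 59.2 CPM (lymphoid-primed) in every progenitor lineage ranked. Cdk6 was highest in basophil and mast cell (603 ± 86.2 CPM) and megakaryocyte progenitors (577 ± 84.5), the latter above the stem gate (491 ± 63.5) in 12 of 13 libraries (exact permutation adjusted p = 0.00488). Both were lower in mature B-gate cells (125 ± 52.0 and 75.1 ± 43.4 CPM, n = 7) and lower again in neutrophil-gate cells, each in 7 of 7 libraries (exact permutation adjusted p = 0.0439 for each step).

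The erythroid gate of Dnmt3a replicate 4 went against the other libraries for most of the genes. Its Ccnd3 level was 371 CPM against 51.5 to 156 in the other 13, its Cdkn2d level 368 against 18.2 to 135 and its Cdkn2c level 134 against 20.8 to 51.3. Its Ccnd1 level was 1.87 CPM and its Cdk6 level 42.1 CPM, the lowest of the 14. These values widen the SD of the erythroid means, and Tnfr1KO-labelled replicate 1 ranked next for Ccnd3 and Cdkn2d. Over the Dnmt3a libraries, Kit in this gate ran from 10.1 to 223 CPM and Mki67 from 395 to 1903 CPM.

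Over the 21 combinations of lineage and Mki67 class, the genes whose log2(CPM + 1) pattern was most like that of a member were found among 7797 genes, as a description only. Cdkn1c tracked Mecom (r = 0.926), which is itself a gate gene, and Ctla2b (0.843). Ccnd1 tracked Lmo2 (0.912), Ccnd2 tracked Sdhaf1 (0.978), Ccnd3 tracked Btbd10 (0.934), Cdk4 tracked Prmt1 (0.993) and Cdk6 tracked Smyd2 (0.978). Between members the highest correlations were Cdk4 with Cdk6 (0.910), Ccnd2 with Cdk4 (0.869), Ccnd2 with Cdk6 (0.815) and Cdkn2d with Ccnd3 (0.797), and the lowest named here was Cdkn2d with Ccnd2 (-0.655). The points come from the same libraries and differ in depth. Both kinases were low in the neutrophil and mature B gates, and the part of these gates in the correlations was not tested. Among the progenitor lineages ranked, basophil and mast cell progenitors had the highest Cdk6 and the lowest Cdk4, so the 2 kinases did not rank alike there.

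Mki67, which encodes a protein made in cycling cells, was used to divide the cells: a Mki67-positive cell held at least 1 Mki67 UMI. After thinning to 5000 UMIs, 38.9% ± 1.5 of kept cells were Mki67-positive in MxCre mice (39.1, 37.4 and 40.3%), 58.0% ± 10.8 in Dnmt3a mice (70.9, 44.4, 57.1 and 59.4%), 40.6% ± 0.252 in Tnfr1KO-labelled mice (40.5, 40.9 and 40.4%) and 42.8% ± 1.57 in Tnfr2KO mice (42.6, 41.4, 45.0 and 42.0%). Every Dnmt3a library exceeded every MxCre and Tnfr1KO-labelled library, and the lowest Dnmt3a library lay just below the highest Tnfr2KO library. Without thinning the Dnmt3a range overlapped those of all 3 other groups. The shares then ran from 56.5% to 64.6% in MxCre, 55.9% to 85.3% in Dnmt3a, 59.1% to 65.1% in Tnfr1KO-labelled and 63.8% to 67.6% in Tnfr2KO libraries, and Dnmt3a replicate 4, the shallowest library, was the lowest of all 14. Thinning also leaves out cells under 5000 UMIs, 33.5% of the kept cells in that library (1816 of 5422) and 2.26% to 22.7% in the others. Of its B progenitors 1004 of 1952 were left out, and their Mki67-positive share was 41.0% unthinned and 69.0% thinned. The parts of equal depth and of the cells left out were not tested apart. The thinned difference of 19.0 percentage points between Dnmt3a and MxCre had an exact permutation p of 0.0571 (two-sided, adjusted p = 0.126 over 11 cell populations), the smallest that 3 against 4 mice allow. Unthinned it was 12.8 percentage points (exact permutation p = 0.229). From Dnmt3a mice, Tnfr1KO-labelled mice differed by -17.3 percentage points thinned and -11.0 unthinned (exact permutation p = 0.0571 and 0.343), and Tnfr2KO mice by -15.2 thinned and -6.99 unthinned (0.0571 and 0.314). The summed Mki67 level over all kept cells was higher in Dnmt3a than in MxCre mice (log2 fold change 1.02, edgeR adjusted p = 0.0385), and gave -1.03 (0.0522) in Tnfr1KO-labelled and -0.81 (0.0603) in Tnfr2KO against Dnmt3a mice.

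In the stem gate the thinned shares were 37.6, 31.7 and 33.0% in MxCre mice and 61.1, 45.3, 61.7 and 58.6% in Dnmt3a mice, with no overlap (exact permutation p = 0.0571, adjusted p = 0.126). Tnfr1KO-labelled mice had 44.7, 41.5 and 49.1% and Tnfr2KO mice 45.1, 40.4, 51.5 and 43.4%, and both ranges overlapped that of the Dnmt3a mice. Unthinned stem-gate shares were 42.7% to 59.2% in MxCre and 63.4% to 77.0% in Dnmt3a mice, again with no overlap, 59.6% to 65.1% in Tnfr1KO-labelled and 56.0% to 59.7% in Tnfr2KO mice. As a background, 15.9% of 182 unthinned T, NK and innate lymphoid cells (median 4579 UMIs) and 6.54% of unthinned mature B-gate cells (median 2704.5 UMIs) held a Mki67 UMI. Thinned, the former gave a share in Dnmt3a replicate 4 alone (6.06% of 33 cells), and their Mki67 level was 40.9 CPM there and 229 CPM in Tnfr1KO-labelled replicate 2.

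**Figure D2:**
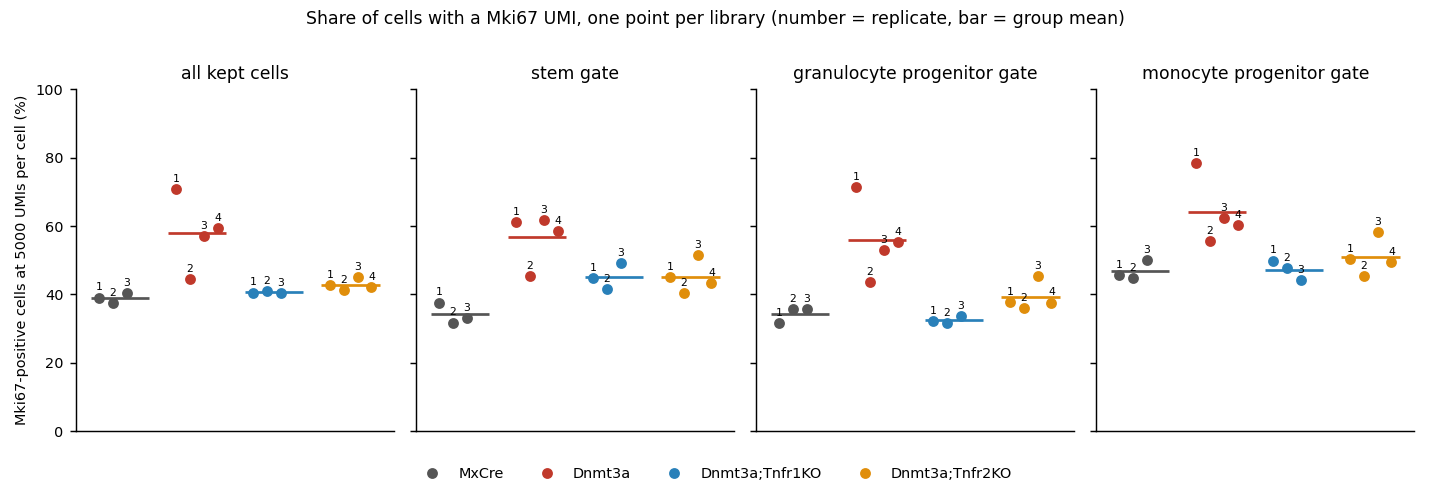
Share of Mki67-positive cells in percent after thinning each cell to 5000 UMIs (vertical axis) by group (horizontal axis) and lineage, with 1 point per library and a bar at the mean. In the stem gate the 4 Dnmt3a libraries (45.3 to 61.7%) lie above the 3 MxCre libraries (31.7 to 37.6%).

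The Mki67 division separated the 10 genes into 3 sets. Cdkn2d and Cdkn2c were higher in Mki67-positive cells. Ccnd1, Ccnd2, in the stem gate Cdkn1c and in 3 of 5 lineages Cdkn1a were lower in those cells. Among the lineages, Cdkn1c passed the filter on low counts in the stem gate alone, so it was not tested in the others. The remaining genes changed little or in a way that depended on the lineage. Mki67-positive and Mki67-negative cells of the same library were compared in a paired fit (edgeR with the library as a block), in which 69.8% of all genes passed over all kept cells and 55.4% in the stem gate, so a call on its own is common. Mki67-positive cells were also deeper: in the stem gate the median depth per library was 14942 to 30641 UMIs in positive and 8229 to 18667 in negative cells. The members were therefore also compared with the class set after thinning, which called Mki67 at an equal depth in every cell.

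In the stem gate, Cdkn2d ran from 39.7 to 75.7 CPM over the 14 libraries in Mki67-positive cells (median 56.8) and from 19.1 to 35.3 CPM in Mki67-negative cells (median 31.9). The ranges did not overlap. The log2 fold change was 0.99 (SE 0.0609, edgeR adjusted p = 1.73e-17), higher in 14 of 14 libraries, and 1.00 with the class set after thinning. Its family member Cdkn2c was at 57.2 ± 17.1 CPM in positive and 49.5 ± 20.6 in negative cells, a smaller difference (log2 fold change 0.16, edgeR adjusted p = 0.00665, and 0.33 after thinning).

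Ccnd1 ran from 20.3 to 75.9 CPM (median 50.7) in Mki67-positive and from 29.7 to 123 CPM (median 91.5) in Mki67-negative stem-gate cells. The ranges overlapped between libraries, yet positive cells were lower in 14 of 14 libraries (log2 fold change -0.86, SE 0.0674, edgeR adjusted p = 3.74e-14, and -0.92 after thinning). Ccnd2 likewise was at 167 ± 34.3 CPM in positive and 273 ± 82.7 in negative cells, lower in 14 of 14 libraries (log2 fold change -0.69, SE 0.0442, edgeR adjusted p = 6.46e-17, and -0.67 after thinning). Ccnd3 did not follow them, at 101 CPM in positive and 98.6 CPM in negative cells (log2 fold change 0.04, edgeR adjusted p = 0.322, and -0.04 with 0.303 after thinning).

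Cdkn1c was at 6.44 ± 2.85 CPM in Mki67-positive and 10.8 ± 4.35 CPM in Mki67-negative stem-gate cells (log2 fold change -0.74, SE 0.122, edgeR adjusted p = 2.12e-06). It was lower in 12 of 14 libraries and kept a log2 fold change of -0.58 after thinning (edgeR adjusted p = 0.000111). Cdkn1b, at 49.8 ± 7.64 against 53.8 ± 16.5 CPM, did not pass (edgeR adjusted p = 0.430, and 0.13 with 0.0640 after thinning). Cdkn1a, at 14.1 against 13.7 CPM, did not pass either (edgeR adjusted p = 0.960), although it gave -0.24 with an edgeR adjusted p of 0.0454 after thinning.

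The kinases differed by little between the classes of the stem gate. Cdk4 was at 373 ± 66.9 CPM in positive and 326 ± 61.3 in negative cells (log2 fold change 0.20, edgeR adjusted p = 1.53e-06), which came to 0.07 and an edgeR adjusted p of 0.058 after thinning. Cdk6 was at 505 ± 51.5 and 467 ± 92.1 CPM (log2 fold change 0.14, edgeR adjusted p = 0.000466), and gave 0.15 after thinning.

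As a background, the share of all genes called higher in Mki67-positive cells was 25.8% in the stem gate, 4.44% in lymphoid-primed, 10.9% in early granule-gene, 21.5% in granulocyte and 34.2% in neutrophil-gate cells. It was 14% in monocyte, 13.2% in megakaryocyte, 17.4% in erythroid and 12.6% in basophil and mast cell progenitors. The share called lower was, in the same order, 29.6, 4.39, 13.5, 22.4, 33.3, 15.8, 14.1, 17.1 and 14.1%. Calls are thus common in either direction, and the lymphoid-primed gate gave the fewest.

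Across lineages, Cdkn2d was higher in Mki67-positive cells in 9 of 9 lineages tested, with log2 fold changes of 0.60 to 1.19, and in 9 of 9 after thinning. Cdkn2c was higher in 8 of 9, from 0.12 to 2.54, with the exception of lymphoid-primed cells (0.50, edgeR adjusted p = 0.126), and in 9 of 9 after thinning. Its neutrophil-gate value was 75.0 ± 19.4 CPM in positive and 11 ± 6.18 in negative cells (n = 9), which came to 1.39 rather than 2.54 after thinning in the 7 libraries left. Ccnd2 was lower in 8 of 8 lineages, from -1.01 in basophil and mast cell to -0.06 in granulocyte progenitors. After thinning it was lower in 7 of 8, from -0.67 to -0.04, and granulocyte progenitors did not pass (edgeR adjusted p = 0.0743). Ccnd1 was lower in 5 of 7 lineages, and in 6 of 7 after thinning.

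Cdkn1a was lower in Mki67-positive cells in 3 of 5 lineages: early granule-gene (-0.50), granulocyte (-0.65) and monocyte progenitors (-0.68). After thinning the values there were -0.50, -0.38 and -0.34, and 4 of 5 lineages passed with the stem gate. In granulocyte progenitors it was at 6.19 ± 1.92 CPM in positive and 9.76 ± 3.59 CPM in negative cells, lower in 13 of 13 libraries. Ccnd3 was lower in the same 3 lineages of 9, by -0.31 to -0.32, and by -0.17 to -0.24 in these 3 after thinning. Cdkn1b was lower in 2 of 9 lineages (neutrophil -0.68, basophil and mast cell -0.57), but after thinning it was higher in granulocyte (0.23), monocyte (0.41) and megakaryocyte progenitors (0.40) and lower in neutrophil-gate cells alone (-0.38).

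The kinase differences depended on the lineage and on whether the class was set after thinning. Thinning also leaves out cells under 5000 UMIs and moves cells that held a Mki67 UMI into the negative class. Neither was tested apart from depth. Cdk4 was higher in Mki67-positive cells in 2 of 9 lineages, the stem gate and the neutrophil gate, and lower in granulocyte progenitors (-0.07). Its neutrophil-gate level was 26.5 ± 10.8 CPM in positive and 10.7 ± 6.32 CPM in negative cells (n = 9, log2 fold change 1.64), which came to 0.84 and did not pass after thinning (edgeR adjusted p = 0.0812). After thinning Cdk4 was higher in 0 of 9 lineages and lower in 4, granulocyte (-0.09), monocyte (-0.06), megakaryocyte (-0.14) and erythroid progenitors (-0.14). Cdk6 was higher in the stem gate and the neutrophil gate (0.79) and lower in megakaryocyte (-0.16) and erythroid progenitors (-0.35). After thinning Cdk6 was higher in the stem gate and in granulocyte progenitors (0.08) and lower in 0 of 9 lineages.

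With plain library totals in place of TMM factors, an alternative chosen after seeing the data, Ccnd2 was lower in 4 of 8 lineages. It did not pass in lymphoid-primed (-0.20), early granule-gene (-0.08), granulocyte (-0.01) and monocyte progenitors (-0.10). Cdk4 was then higher in 3 of 9 lineages, with erythroid progenitors added (0.13), and lower in 0. Cdk6 was higher in 3, with granulocyte progenitors added (0.09), and Cdkn1b was higher in megakaryocyte progenitors (0.24). The counts of the other 6 genes were as given above.

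**Figure D3:**
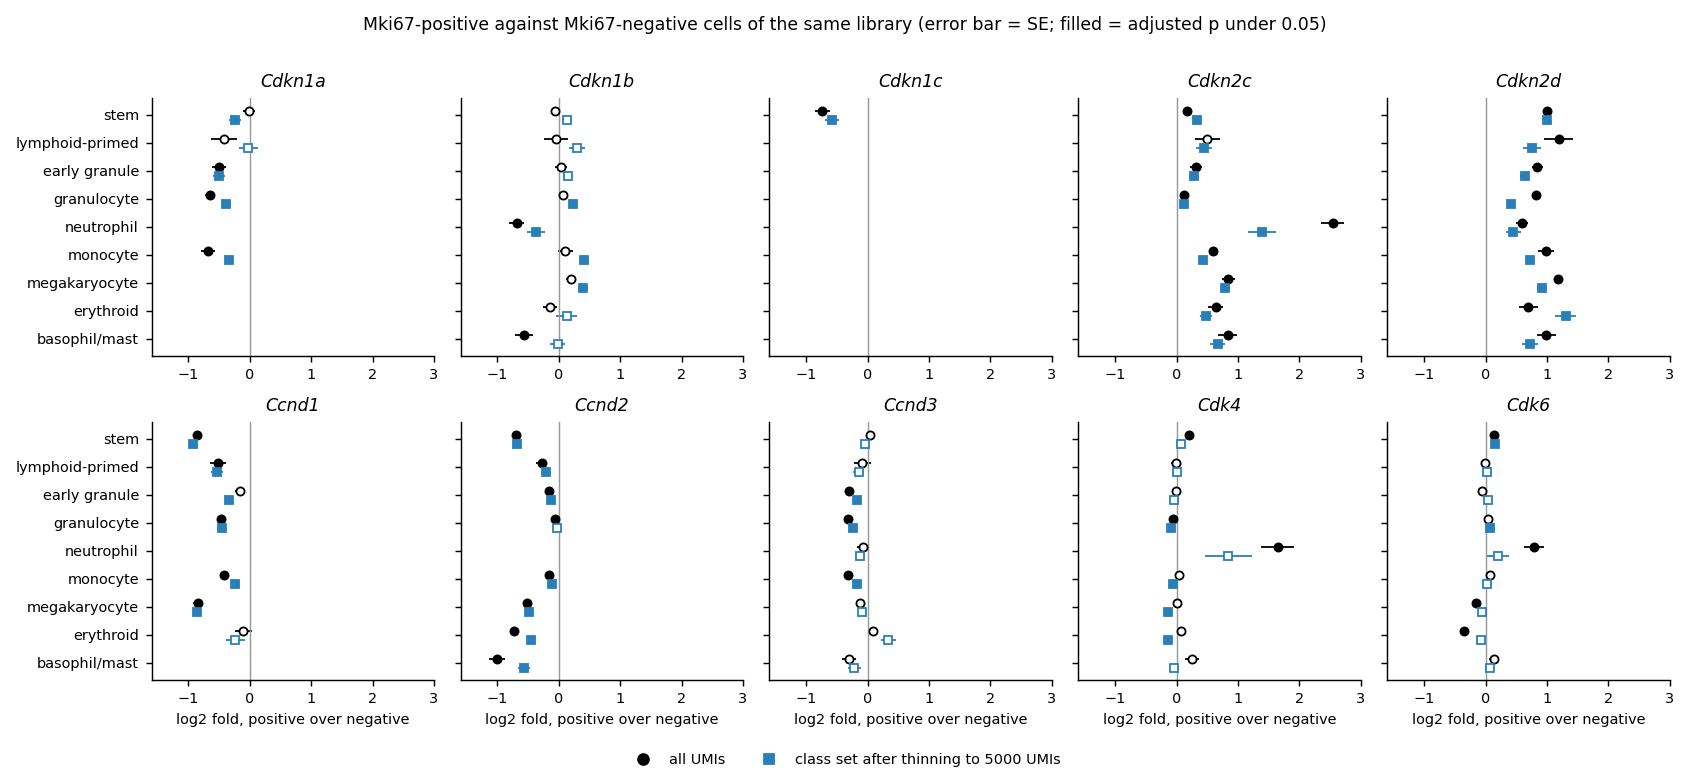
Log2 fold change of each gene between Mki67-positive and Mki67-negative cells (horizontal axis) in each lineage, with all UMIs (black circles) and with the class set after thinning (blue squares), filled where the edgeR adjusted p was under 0.05, with bars of 1 SE. Cdkn2d lies above 0 in 9 of 9 lineages and Ccnd2 below 0 in 8 of 8 with all UMIs.

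The Mki67 difference was next compared between groups. The comparison was run in 6 populations: all kept cells, cells that passed no gate, and the stem, early granule-gene, granulocyte and monocyte gates. In the other gates some group had too few libraries with enough cells of both classes. Of 228 tests of member, population and comparison, 0 were called by edgeR (0.0163% of the tests of all genes), and the lowest adjusted p was 0.119. An unadjusted p under 0.05 was found in 28, and the share of all genes under it is not given here. With the class set after thinning 0 were called as well, and DESeq2 was not run on this test. In these 6 populations a difference between groups in how these genes follow Mki67 was therefore not detected with these numbers of mice.

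Between groups few of the 10 genes passed. Over all lineages and Mki67 classes, 14 of 1078 tests of members were called by edgeR (1.3%), against 0.99% of the tests of all genes. DESeq2 called 40. The number of DESeq2 tests and the share of all genes called by DESeq2 are not given here. The DESeq2 counts therefore do not show whether members were called more often than other genes. For Dnmt3a against MxCre the members were called about as often as other genes, with 5 of 260 by edgeR (1.92%, against 1.9% of all genes, 15 calls by DESeq2). The edgeR calls were 9 of 258 for Tnfr2KO against Dnmt3a (3.49%, against 1.07% of all genes, 22 by DESeq2). For Tnfr1KO-labelled against Dnmt3a they were 0 of 269 (0.949%, 20 with an unadjusted p under 0.05, 3 by DESeq2), and for Tnfr2KO against Tnfr1KO-labelled 0 of 291 (0.128%, 15 with an unadjusted p under 0.05, 0 by DESeq2). The calls fell on Cdkn1b, Cdkn1a and Ccnd2. Ranges without overlap are named below for some uncalled genes too. The share of all genes without overlap is not given here, so such a range alone is no result about a member. The smallest exact two-sided permutation p is 0.0571 for 3 against 4 libraries and 0.0286 for 4 against 4. Tests over all cells of a gate and over its Mki67 classes share cells, so calls of the same gene there are not separate results. In such sums, fewer cells of a type and less RNA per cell cannot be told apart.

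The scaling moved the size of the group differences. Fold changes use TMM factors, which set the bulk of genes near 0, whereas CPM use the whole library total. With plain library totals in the fit, an alternative chosen after seeing the data, the median of all genes moved by 0.08 in the stem gate for Dnmt3a against MxCre mice. For Tnfr2KO against Dnmt3a mice it moved by -0.22 in granulocyte and -0.20 in monocyte progenitors. The share of called genes that were higher went from 45.2% to 66.9% in the first comparison, from 48.3% to 7.29% in the second and from 59.7% to 7.25% in the third. All 14 calls of members kept their direction and passed with plain totals. Cdk6 in the stem gate, which did not pass with TMM, passed with plain totals (0.37, edgeR adjusted p = 0.0345). It was not the only gain. Counts of called members in single lineages rose with plain totals for Dnmt3a against MxCre and for Tnfr2KO against Dnmt3a mice, as given in the closing section. So did the number of all genes called for Tnfr2KO against Dnmt3a mice in granulocyte and monocyte progenitors. Fold changes are therefore relative to the bulk of genes in the same cells, and the other gene lists were compared with TMM alone.

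In stem-gate cells, Dnmt3a mice had less Ccnd2 and more Cdkn1b than MxCre mice. These were 2 of 10 members called, while 8.6% of all genes were called in this comparison. Ccnd2 was at 243, 319 and 295 CPM in the MxCre mice and at 184, 227, 155 and 169 CPM in the Dnmt3a mice. All Dnmt3a values lay below all MxCre values, and the Ccnd2 log2 fold change was -0.71 (SE 0.191, edgeR adjusted p = 0.0331). Cdkn1b was at 45.7, 41.7 and 39.1 CPM in the MxCre mice and at 73.3, 60.1, 59.2 and 52.1 CPM in the Dnmt3a mice, again with no overlap (log2 fold change 0.46, SE 0.122, edgeR adjusted p = 0.0310).

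In the Mki67-negative stem-gate cells, which are part of the cells just described, the same 2 genes were called (3.8% of all genes). Ccnd2 was at 343, 451 and 406 CPM in MxCre and 237, 309, 212 and 270 CPM in Dnmt3a mice (log2 fold change -0.74, edgeR adjusted p = 0.0242). Cdkn1b was at 48.8, 36.8 and 33.7 CPM in MxCre and 87.4, 66.1, 74.2 and 58.2 CPM in Dnmt3a mice (log2 fold change 0.74, edgeR adjusted p = 0.0431). Neither pair of groups overlapped. In Mki67-positive stem-gate cells 0 of 10 were called by edgeR (3.88% of all genes, 4 members with an unadjusted p under 0.05, 0 by DESeq2). There Ccnd2 stood at 200, 207 and 205 CPM in MxCre and 174, 195, 145 and 143 CPM in Dnmt3a mice, also without overlap. Cdkn1b had a log2 fold change of 0.34 (edgeR adjusted p = 0.0820). The comparison of the Mki67 difference between groups called 0 members, so these results are not shown to be confined to Mki67-negative cells.

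These calls depended on the libraries used. Over all stem-gate cells, the Ccnd2 call was lost without MxCre replicate 2 (-0.64, edgeR adjusted p = 0.132) or 3 (-0.69, 0.132) and without Dnmt3a replicate 1 (-0.67, 0.0705), 3 (-0.64, 0.0740) or 4 (-0.66, 0.0710). The Cdkn1b call was lost without MxCre replicate 2 (0.44, edgeR adjusted p = 0.118) or 3 (0.39, 0.168) and without Dnmt3a replicate 1 (0.40, 0.0673) or 3 (0.47, 0.0524). The 2 groups fitted alone lost it too (0.45, 0.0567). With Dnmt3a replicates 1 and 4 both left out, Ccnd2 gave -0.59 (edgeR adjusted p = 0.209) and Cdkn1b 0.47 (0.0842). In Mki67-negative cells Ccnd2 was lost without MxCre replicate 2 (edgeR adjusted p = 0.113) or 3 (0.103) or Dnmt3a replicate 1 (0.0699) or 3 (0.0617). On leaving out single libraries its log2 fold change ran from -0.89 to -0.66 there, and that of Cdkn1b from 0.61 to 0.93. Cdkn1b was lost there without MxCre replicate 2 (edgeR adjusted p = 0.164) or 3 (0.249), Dnmt3a replicate 1 (0.118), 2 (0.0770) or 3 (0.0828), Tnfr1KO-labelled replicate 2 (0.0585) or Tnfr2KO replicate 2 (0.0527). It was also lost with the class set after thinning (0.58, 0.0851) and under the stricter lineage rule (0.43, 0.474). Without Dnmt3a replicates 1 and 4 the Mki67-negative values were -0.66 for Ccnd2 (0.172) and 0.75 for Cdkn1b (0.147).

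Markers of other lineages moved with the groups inside the stem gate. The summed level of the 6 granulocyte markers was 2669 to 4696 CPM in Dnmt3a and 1066 to 1863 CPM in MxCre mice, that of the 6 lymphoid-primed markers 52.3 to 90.7 against 34.2 to 42.6, and that of the 6 megakaryocyte markers 55.4 to 71.8 against 116 to 163. The 6 monocyte markers summed to 70.5 to 128 against 42.9 to 58.2 CPM and the 6 B progenitor markers to 3.45 to 19.3 against 1.86 to 2.79 CPM, with Pax5 at 0 in MxCre mice. The stem markers themselves were at 302 to 324 against 301 to 469 CPM, and Mki67 at 313 to 658 against 194 to 219 CPM. Their part in the Ccnd2 and Cdkn1b results was not tested.

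The other 8 genes did not pass in the stem gate. Cdkn1a was at 9.42, 7.85 and 6.17 CPM in MxCre and 18, 13.5, 13.5 and 14.2 CPM in Dnmt3a mice, without overlap (log2 fold change 0.84, edgeR adjusted p = 0.159). Cdk6 was at 425, 412 and 412 CPM against 601, 503, 474 and 580 CPM, also without overlap (0.29, edgeR adjusted p = 0.0776). Cdkn1c was at 8.23, 11.5 and 14.7 CPM against 7.48, 8.07, 8.09 and 10.2 CPM (-0.53, edgeR adjusted p = 0.204), with the ranges overlapping.

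Cdkn2c was at 84.7, 70.5 and 80.4 CPM in MxCre mice and at 28.9, 81.9, 60.0 and 47.3 CPM in Dnmt3a mice, a wide spread with overlap (log2 fold change -0.58, edgeR adjusted p = 0.147). The Tnfr1KO-labelled values were 36.6, 46.7 and 51.6 CPM and the Tnfr2KO values 36.4, 46.5, 46.9 and 57.9 CPM, set beside them without a test against MxCre. Cdkn2d (48.4 against 52.2 CPM), Ccnd1 (75.0 against 61.8), Ccnd3 (103 against 103) and Cdk4 (389 ± 111 against 331 ± 31.7) had edgeR adjusted p values of 0.396, 0.610, 0.757 and 0.653.

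**Figure D4:**
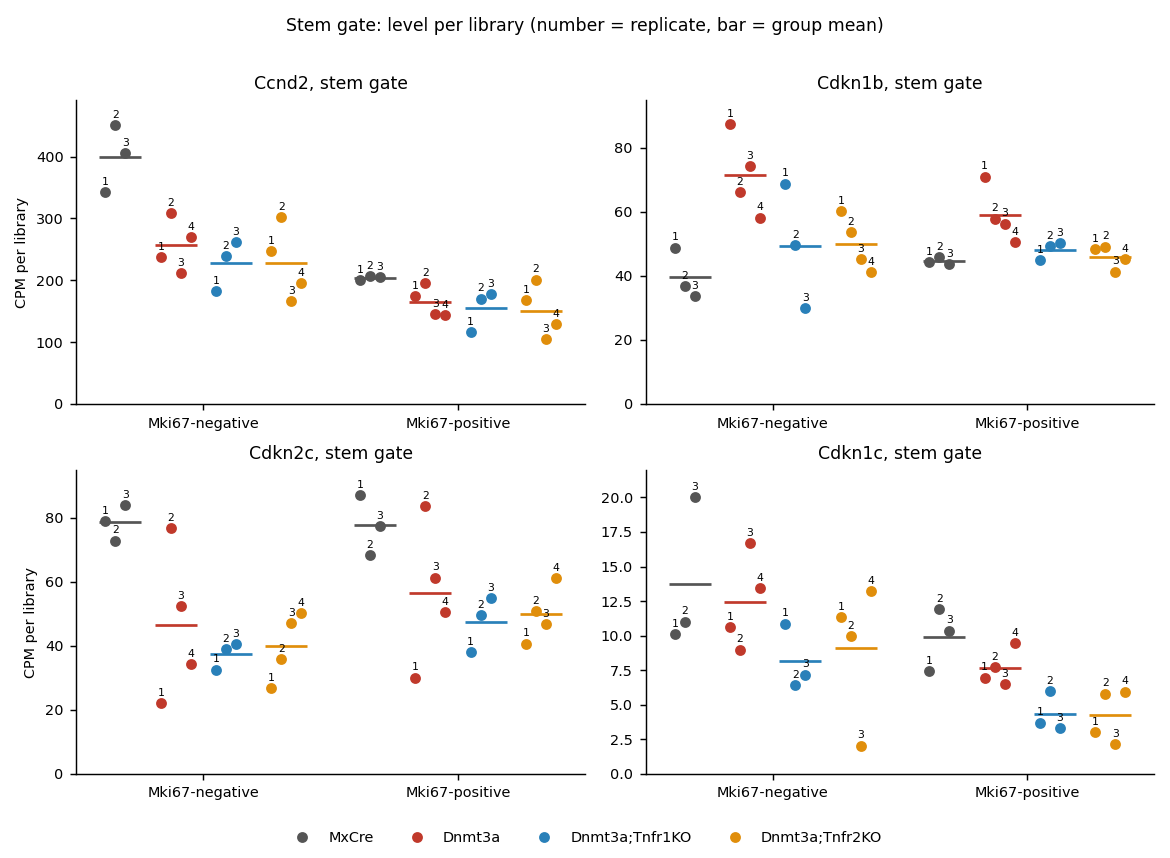
Level of Ccnd2, Cdkn1b, Cdkn2c and Cdkn1c in CPM (vertical axis) in Mki67-negative and Mki67-positive stem-gate cells by group (horizontal axis), with 1 point per library numbered by replicate and a bar at the mean. In Mki67-negative cells the Dnmt3a libraries lie below the MxCre libraries for Ccnd2 and above them for Cdkn1b.

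In the stem gate 0 of the 10 genes were called between either receptor group and Dnmt3a, by edgeR or DESeq2. The share of all genes called was 0.485% for Tnfr2KO, with 1 member at an unadjusted p under 0.05, and 0.837% for the Tnfr1KO-labelled group, with 0. Ccnd1 had the lowest edgeR adjusted p among the Tnfr2KO comparisons named here, with 48.4, 39.9, 22.8 and 59.8 CPM in Tnfr2KO and 63.2, 84.8, 83.4 and 68.4 CPM in Dnmt3a mice (log2 fold change -0.66, edgeR adjusted p = 0.173). The 2 ranges did not overlap. Cdkn1c in Tnfr1KO-labelled mice (4.23 to 6.09 CPM) also lay below that in Dnmt3a mice (7.48 to 10.2 CPM), without a call. For Cdkn1b the log2 fold change was -0.24 (interval of 2 SE -0.46 to -0.01, edgeR adjusted p = 0.352) in Tnfr2KO and -0.18 (-0.43 to 0.07, edgeR adjusted p = 0.504) in Tnfr1KO-labelled mice. Cdkn1a in Tnfr1KO-labelled mice was at 40.0, 9.98 and 12.7 CPM, replicate 1 being the highest of the 14 libraries.

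Over all kept Mki67-positive cells, Cdkn1a was higher in Dnmt3a than in MxCre mice and Cdkn1b was lower in Tnfr2KO than in Dnmt3a mice, each as 1 of 10 members called. In the first comparison 1.97% of all genes were called and 1.16% were higher, and in the second 1.36% were called and 0.595% were lower. Cdkn1a was at 6.89, 5.78 and 6.75 CPM in MxCre and 15.9, 12.2, 14.8 and 19.3 CPM in Dnmt3a mice, without overlap (log2 fold change 1.16, SE 0.278, edgeR adjusted p = 0.0497). That call held on leaving out Dnmt3a replicate 2 or Tnfr1KO-labelled replicate 1 and was lost on leaving out any of the other 12 libraries (edgeR adjusted p = 0.0522 to 0.169), with 1.00 (0.191) without Dnmt3a replicates 1 and 4. The same call was lost with the 2 groups fitted alone (1.14, 0.0521), the replicate number as a block (1.08, 0.0725) and doublets kept (1.13, 0.0545).

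Cdkn1b in these cells was at 50.2, 32.7, 29.7 and 44.7 CPM in Dnmt3a and 24.3, 26.7, 18.4 and 19.2 CPM in Tnfr2KO mice, without overlap (log2 fold change -0.62, SE 0.14, edgeR adjusted p = 0.0464). It held on leaving out Dnmt3a replicate 2 or 3 and was lost on leaving out any of the other 12 libraries (edgeR adjusted p = 0.0599 to 0.130). Without Dnmt3a replicates 1 and 4 it came to -0.36 (0.547). It was also lost with the 2 groups fitted alone (-0.62, 0.222), the class set after thinning (-0.58, 0.0723) and Mki67-positive cells taken from 2 UMIs (-0.57, 0.0663). The cell mix moved with the groups here: the summed B progenitor markers ran from 11.4 to 1193 CPM in Dnmt3a, from 3.14 to 3.81 in MxCre and from 2.74 to 9.59 in Tnfr2KO libraries, and their part in the Cdkn1a and Cdkn1b results was not tested.

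Granulocyte progenitors of Tnfr2KO mice had less Cdkn1b and less Cdkn1a than those of Dnmt3a mice, in all cells and in both Mki67 classes (2 of 10 members in all cells, where 4.8% of all genes were called and 2.48% were lower). Cdkn1b was at 28.9, 19.1, 19.0 and 18.4 CPM in Dnmt3a and 14.1, 13.2, 11.7 and 10.4 CPM in Tnfr2KO mice. The groups did not overlap (log2 fold change -0.55, SE 0.125, edgeR adjusted p = 0.0254, and -0.79 with 0.0106 on plain totals). Cdkn1a was at 10.7, 9.77, 10.2 and 8.18 CPM in Dnmt3a and 5.04, 5.25, 5.66 and 5.39 CPM in Tnfr2KO mice, also without overlap (log2 fold change -0.64, SE 0.178, edgeR adjusted p = 0.0485, and -0.86 with 0.0136 on plain totals). MxCre mice stood at 13.5, 14.5 and 14.6 CPM for Cdkn1b and 5.08, 5.33 and 6.48 CPM for Cdkn1a, and their comparison with Dnmt3a mice was not called for either gene (Cdkn1b 0.37, edgeR adjusted p = 0.124, and Cdkn1a 0.59, edgeR adjusted p = 0.0940).

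In Mki67-negative granulocyte progenitors, where Dnmt3a replicate 1 had 14 cells and was not used and replicate 4 had 27, both genes were called again (2.43% of all genes called, 0.978% lower). Cdkn1b was at 24.2, 22.4 and 26.9 CPM in Dnmt3a replicates 2 to 4 and 14.4, 12.6, 7.87 and 8.49 CPM in Tnfr2KO mice (log2 fold change -0.97, SE 0.219, edgeR adjusted p = 0.0261). Cdkn1a was at 16.5, 15.5 and 14.5 CPM against 5.64, 8.94, 7.87 and 7.09 CPM (-0.94, SE 0.218, edgeR adjusted p = 0.0289). Neither gene's groups overlapped. In Mki67-positive granulocyte progenitors (3.73% of all genes called, 1.71% lower) Cdkn1b was at 12.6 ± 1.35 CPM in Tnfr2KO and 20.9 ± 5.16 in Dnmt3a mice (-0.50, edgeR adjusted p = 0.0345), and Cdkn1a at 4.93 ± 0.336 and 9.26 ± 1.24 CPM (-0.70, edgeR adjusted p = 0.0477).

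The Cdkn1b call over all granulocyte progenitors was lost without Dnmt3a replicate 1 (-0.45, edgeR adjusted p = 0.0578) or Tnfr2KO replicate 4 (-0.47, 0.0575), with the 2 groups fitted alone (-0.57, 0.115) and without Dnmt3a replicates 1 and 4 (-0.49, 0.140). The Cdkn1a call held on leaving out Tnfr1KO-labelled replicate 1 or 3 and was lost on leaving out any of the other 12 libraries (edgeR adjusted p = 0.0508 to 0.106). It was also lost under the stricter lineage rule (-0.28, 0.813), without Dnmt3a replicates 1 and 4 (-0.77, 0.157), with the 2 groups fitted alone (-0.66, 0.0539), with the replicate number as a block (-0.64, 0.0773) and with doublets kept (-0.62, 0.0685). In Mki67-negative cells Cdkn1b was lost without Dnmt3a replicate 2 (edgeR adjusted p = 0.0863), 3 (0.0879) or 4 (0.0905) or Tnfr2KO replicate 3 (0.0537), with the 2 groups fitted alone (0.0595) and from 50 cells per library (0.0905). It was called with the class set after thinning, at -0.53 (0.0323). Cdkn1a was lost there without Dnmt3a replicate 2 (edgeR adjusted p = 0.115), 3 (0.118) or 4 (0.0815) or Tnfr2KO replicate 1 (0.0787) and from 50 cells per library (0.0815). In Mki67-positive cells Cdkn1b was lost without MxCre replicate 2 (edgeR adjusted p = 0.0508) or 3 (0.0541), Dnmt3a replicate 1 (0.0738) or Tnfr2KO replicate 2 (0.0667), 3 (0.0681) or 4 (0.0824). It was also lost there with the 2 groups fitted alone (0.145), the class set after thinning (0.05004), the stricter lineage rule (0.0524) and without Dnmt3a replicates 1 and 4 (0.198). Among single libraries left out, Cdkn1a held there for Tnfr1KO-labelled replicate 3 and was lost for the other 13 (edgeR adjusted p = 0.0524 to 0.104). It was also lost under the stricter lineage rule (0.895), with the replicate number as a block (0.0759), with doublets kept (0.0770), with the class set after thinning (0.124) and without Dnmt3a replicates 1 and 4 (0.198). This log2 fold change of Cdkn1a ran from -0.76 to -0.65 on leaving out single libraries and from -0.90 to -0.21 over all alternatives.

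Within the granulocyte gate, the summed granulocyte markers ran from 23631 to 38466 CPM in Dnmt3a and from 30365 to 38870 CPM in Tnfr2KO mice. B progenitor markers summed to 3.42 to 16.4 against 3.04 to 5.03 CPM, lymphoid-primed markers to 27.8 to 47.5 against 24.0 to 30.2 and stem markers to 10.2 to 26.3 against 9.60 to 12. Mki67 was at 181 to 429 CPM in Dnmt3a and 119 to 169.8 CPM in Tnfr2KO mice, without overlap, and the thinned share of Mki67-positive cells was 55.8% ± 11.5 against 39.2% ± 4.21. Their part in the Cdkn1b and Cdkn1a results was not tested.

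Monocyte progenitors of Tnfr2KO mice also had less Cdkn1b than those of Dnmt3a mice, 1 of 10 members (2.05% of all genes called, 0.826% lower). It was at 35.3, 22.4, 24.3 and 31.4 CPM in Dnmt3a and 16.1, 19.6, 14.5 and 14.4 CPM in Tnfr2KO mice, without overlap (log2 fold change -0.60, SE 0.141, edgeR adjusted p = 0.0381). In the Mki67-positive cells (1.94% of all genes called, 0.771% lower) it was at 16.5 ± 2.54 CPM in Tnfr2KO and 28.3 ± 5.52 in Dnmt3a mice (-0.58, edgeR adjusted p = 0.0473). Over all monocyte progenitors the call held on leaving out Dnmt3a replicate 2 or 3, Tnfr1KO-labelled replicate 1 or 2 or Tnfr2KO replicate 2 and was lost on leaving out any of the other 9 libraries (edgeR adjusted p = 0.0551 to 0.106). In the Mki67-positive cells it held on leaving out Dnmt3a replicate 2, Tnfr1KO-labelled replicate 1 or Tnfr2KO replicate 2 and was lost on leaving out any of the other 11 (edgeR adjusted p = 0.0503 to 0.128). Without Dnmt3a replicates 1 and 4 the values were -0.40 and -0.41 (0.424 for both). Over all monocyte progenitors the call was also lost with the 2 groups fitted alone (-0.61, 0.133) and with cells of 1 Mki67 UMI left out (-0.55, 0.0514). In the Mki67-positive cells it was also lost with the 2 groups alone (-0.58, 0.125), doublets kept (-0.56, 0.0535), the class set after thinning (-0.53, 0.0819) and Mki67-positive cells taken from 2 UMIs (-0.52, 0.0621). In this gate the mature B markers summed to 21.2 to 338 CPM in Dnmt3a and 32.4 to 160 in Tnfr2KO mice, the B progenitor markers to 3.24 to 15.3 and 2.42 to 4.55, and Mki67 was at 254 to 579 and 159 to 259 CPM. Their part in the result was not tested.

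**Figure D5:**
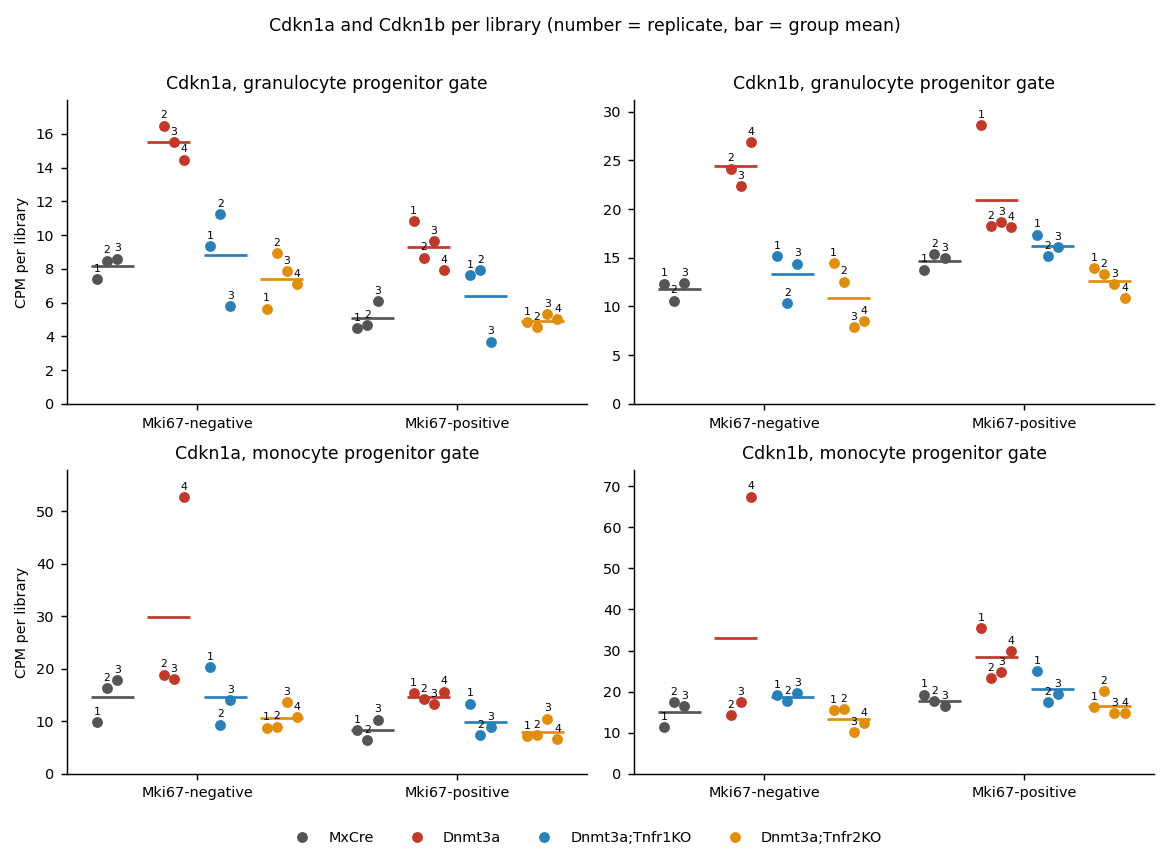
Cdkn1a and Cdkn1b in CPM (vertical axis) in Mki67-negative and Mki67-positive granulocyte and monocyte progenitors by group (horizontal axis), with 1 point per library numbered by replicate and a bar at the mean. In Mki67-negative granulocyte progenitors the Tnfr2KO libraries (Cdkn1b 7.87 to 14.4 CPM) lie below the 3 Dnmt3a libraries with enough cells (22.4 to 26.9 CPM).

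Of the 33 other G1 genes listed for this pathway, 31 were tested in the stem gate between Dnmt3a and MxCre mice, and 2 were called, where 8.6% of all genes were called. Lin9, a subunit of the DREAM and MuvB complexes, rose (log2 fold change 0.47, edgeR adjusted p = 0.0382) and Mycn, a Myc family transcription factor, fell (-1.95, edgeR adjusted p = 0.00854), with a list median of 0.06 against 0.01 for all genes. Of 12 G2 and M phase genes, Bub1 (0.73, edgeR adjusted p = 0.0450) and Top2a (0.48, edgeR adjusted p = 0.0344) rose, with a list median of 0.19. Of 12 S phase genes (median 0.17) and 11 p53 target genes tested (median -0.18), 0 were called by edgeR, with 3 and 2 at an unadjusted p under 0.05. The share called was thus near that of all genes or below it for the other G1, S phase and p53 target lists. The 2 of 12 calls of the G2 and M phase list are too few to be set apart from that share.

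In granulocyte progenitors, where 4.8% of all genes were called, 3 of 30 other G1 genes rose in Dnmt3a against MxCre mice: Ccne1, which encodes cyclin E1 (0.72, edgeR adjusted p = 0.0354), Skp2, which targets p27 for degradation (0.45, edgeR adjusted p = 0.0393), and Fbxw7, which targets cyclin E (0.39, edgeR adjusted p = 0.0481). The list median was 0.14 against -0.01 for all genes. Between Tnfr2KO and Dnmt3a mice Fbxw7 (-0.56, edgeR adjusted p = 0.00732) and Rbl1, which encodes p107 (-0.40, edgeR adjusted p = 0.0445), fell, with a list median of -0.15. Both comparisons share the Dnmt3a libraries.

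The same lists were compared across the Mki67 division in the stem gate, with all UMIs only, where 55.4% of all genes passed. All 12 of the 12 G2 and M phase genes were higher in Mki67-positive cells, with a median log2 fold change of 3.77. Of 31 other G1 genes, 16 were higher, led by E2f2 (1.95), E2f7 (1.83), E2f8 (1.78) and Cks1b (1.59), and 9 were lower. Of 6 p53 target genes tested, 3 were lower: Trp53inp1 (-0.98), Bbc3 (-0.98) and Ccng1 (-0.22). Of 12 S phase genes, 7 were higher, among them Rrm2 (1.76) and Tyms (1.40), and 4 were lower.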

How the data were processed

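Single-cell RNA was measured in 14 libraries of sorted bone marrow cells. The authors deposited raw UMI counts per gene and barcode, made with Cell Ranger 6.0.0 and bcl2fastq 2.20.0.422, per the submitters' processing notes, which also name mm10 and GRCm38. No pooling or normalization is recorded in the sources used here. Gene positions are those of GRCm38.p6 in RefSeq.

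Barcodes were kept from 1000 UMIs and 500 genes upward, if mitochondrial genes took less than 10% of the UMIs. Doublets were called per library from simulated doublets (1500 variable genes, 30 principal components, 30 neighbours, 0.8% per 1000 cells) and removed. UMIs were summed per library, lineage (at least 20 cells) and Mki67 class. The sums were tested over all genes with edgeR 4.0.16 (quasi-likelihood, TMM scaling, filterByExpr, Benjamini-Hochberg, called at an adjusted p under 0.05) in R 4.3.3, with all 4 groups in 1 fit. Levels are plain CPM, so their ratios differ from fitted fold changes, which are on the TMM scale. Permutation tests used scipy 1.17.1. Intervals and thinned shares cover counting error or the spread between these mice only.

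The members and gene lists were chosen with earlier results of these data known. The 10 members were named in every comparison, of each other list the called genes (up to 4 by size of change), and the 3 genes most like each member were found by correlation. On simulated counts, the stem-gate test of Dnmt3a against MxCre recovered 48% of 2-fold and 5% of 1.5-fold changes over 11925 genes, and the Mki67 class test over all kept cells 100% and 86% over 13462 genes. The simulation used the same dispersion for every gene and changed only genes with enough expected UMIs. It gave the libraries no effect of their own, so these shares hold for that setting and need not hold for the fits above. Alternatives were DESeq2 1.42.0, no filter on low counts, 2 groups alone, the replicate number as a block, each library left out, doublets kept, at least 2500 UMIs per cell, at least 50 cells, a stricter lineage rule, 2 Mki67 UMIs, thinned classes, and, chosen after seeing the data, Dnmt3a replicates 1 and 4 left out together and plain library totals without TMM.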

Additional observations from a re-analysis of the deposited data

Results flagged for a closer look

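In 12 of 86 groups of 4 libraries, 1 library lay far from the other 3 in relation to the group's range. For independent groups of normally distributed values, chance alone marks about 1 in 20. The 86 groups share libraries, and some share cells, so that rate is no measure for the 12 marked. Over all kept cells, 5 of these were Dnmt3a replicate 4, the library with most of the B progenitor cells. Its Cdkn2d level was 81.0 CPM in Mki67-negative cells (others 22.6 to 28.1) and 81.7 CPM in Mki67-positive cells (others 33.3 to 40.6). Its Ccnd3 level was 348 CPM in negative (others 77.1 to 106) and 240 CPM in positive cells (others 66.4 to 85.8), and its Ccnd1 level 27 CPM in positive cells (others 50.002 to 52.348). In the B progenitors of that library Cdkn2d was at 144 CPM and Ccnd3 at 852 CPM.

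Among Tnfr2KO libraries, replicate 4 had Cdk4 at 422 CPM in Mki67-negative (others 294 to 308) and 435 CPM in Mki67-positive cells (others 321 to 331). Replicate 3 had Cdkn2d at 38.4 CPM in Mki67-negative cells (others 21.0 to 22.7) and the highest share of Mki67-positive granulocyte progenitors after thinning, 45.4% (others 36.0 to 37.6%). Replicate 2 had Cdk6 at 386 CPM in granulocyte progenitors (others 305 to 319). Dnmt3a replicate 1 had Cdkn1a at 18 CPM in the stem gate (others 13.5 to 14.2) and Cdkn1b at 28.9 CPM in granulocyte progenitors (others 18.4 to 19.1).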

How the results depend on the processing

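Counts of called members moved with the settings. They are given without the share of all genes called under each setting. They therefore do not show whether the members moved more than other genes. For Dnmt3a against MxCre, the count over Mki67-negative cells of all kept lineages was 0, and 1 with DESeq2. Over Mki67-positive cells it was 1, and 0 with the 2 groups alone, with the replicate block, with doublets kept and without Dnmt3a replicates 1 and 4. In the stem gate it was 2, 4 without a filter on low counts and 0 without Dnmt3a replicates 1 and 4. Over single lineages with the Mki67 classes apart it was 2, against 14 without the filter, 5 with the 2 groups alone, 4 with the replicate block, 5 with DESeq2 and 0 without those 2 libraries. Leaving out single libraries gave 0 to 1, 0 to 1, 0 to 3 and 0 to 7.

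For Tnfr1KO-labelled against Dnmt3a the counts were 0, with 1 in Mki67-negative cells with DESeq2, and in single lineages 2 without the filter, 1 with DESeq2 and 1 under the stricter lineage rule (0 to 1 on leaving out single libraries for both). For Tnfr2KO against Dnmt3a the count in Mki67-negative cells was 0, and 1 without the filter, with DESeq2 and with thinned classes (0 to 2 on leaving out single libraries). In Mki67-positive cells it was 1, and 0 with the 2 groups alone, thinned classes, 2 Mki67 UMIs or without Dnmt3a replicates 1 and 4, and 2 with DESeq2 (0 to 1). In the stem gate it was 0, and 1 without the filter. In single lineages it was 5, against 15 without the filter, 2 with the 2 groups alone, 9 with DESeq2, 3 with at least 50 cells, 3 with doublets kept, 2 under the stricter rule and 0 without Dnmt3a replicates 1 and 4 (0 to 5). For Tnfr2KO against Tnfr1KO-labelled it was 0, and 1 with the replicate block. Of 19 same-numbered pairs of libraries, 7 correlated above 0.1 (-0.449 to 0.441). Such correlations cannot tell whether mice of the same replicate number share a source.

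Between Mki67 classes over all kept cells 9 members were called, where 69.8% of all genes passed. The count was 5 without the library block and 9 to 10 on leaving out single libraries. With thinned classes the log2 fold change turned for Cdkn1b (-0.48 to 0.27), Ccnd3 (-0.17 to 0.0455) and Cdk4 (0.27 to -0.0369). Cdk6, at -0.01, took the other sign with thinned classes (0.0376), without the filter (0.0633), with DESeq2 (0.0104), with doublets kept (0.000325) and on leaving out single libraries (-0.0654 to 0.00991, among them 0.00179, 0.00222, 0.000883, 0.00863, 0.000725, 0.000206 and 0.00888), and was called without Dnmt3a replicate 4 (-0.07, edgeR adjusted p = 0.0335). Neighbouring lineages that differed numbered 34, 23 under the stricter lineage rule and 9 in Mki67-negative cells alone. The Mki67 share of Tnfr2KO against Dnmt3a mice was -15.2 percentage points (exact permutation p = 0.0571), -12.2 on thinning to 2500 UMIs and -17.1 from 2 UMIs (exact permutation p = 0.0286 for both). Without thinning it was -6.99, with 12.8 for Dnmt3a against MxCre, -11.0 for Tnfr1KO-labelled against Dnmt3a and 3.96 for Tnfr2KO against Tnfr1KO-labelled. Leaving out single libraries gave -19.7 to -10.9 for Tnfr2KO against Dnmt3a, 14.7 to 23.5 for Dnmt3a against MxCre, -21.8 to -13.0 for Tnfr1KO-labelled against Dnmt3a and 1.40 to 2.60 for Tnfr2KO against Tnfr1KO-labelled. With plain library totals without TMM, single-lineage counts were 12 for Dnmt3a against MxCre and 10 for Tnfr2KO against Dnmt3a, where Mki67-negative cells gave 1 and Mki67-positive cells 3. Genes called for Tnfr2KO against Dnmt3a went from 604 to 2333 in granulocyte and from 253 to 1794 in monocyte progenitors. The cause of these changes was not tested.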
